A study of Mus musculus with 10 samples.

Results

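The enzymes of cholesterol and fatty acid synthesis, with their SREBP regulators, were followed through the change of mouse embryonic stem cells (ESCs) into epiblast-like cells (EpiLCs) and through loss and overexpression of the homeobox gene Otx2. The set was a list of 32 gene symbols, taken wherever a row of the deposited expression tables carried the symbol. Of the 22867 symbols in the tables, 31 were on the list. Tm7sf2, a sterol reductase, had only an entry shared with 1110014N23Rik, so no value was given to it. Hmgcs1, the synthase that makes HMG-CoA, was listed at 0 in all 10 libraries, in 2 entries on the unplaced sequence chr13_random, and is described no further. Values were therefore at hand for 30 genes, 21 of 23 in the sterol arm and 9 of 9 in the fatty acid arm.

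RNA was sequenced in 10 libraries of 129SV cells, in the unit FPKM (fragments scaled to transcript length and to the size of the library). EpiLCs, which stand for the early post-implantation epiblast, were made in 48 h with bFGF and 1% KSR. They were made from the line R1 with activin A at 20 ng/ml, from R1 without activin A, from E14 and from Otx2-/- cells, in 1 library each. The labels leave it unsaid whether activin A was added to E14 and Otx2-/- EpiLCs and whether the Otx2-/- line is 1 clone. ESCs were held in 2i+LIF, with PD0325901 (0.8 µM) to block MEK and CHIR99021 (3.3 µM) to block GSK3, and stand for naive pluripotency. There were 2 ESC libraries of R1, 1 of E14 and 1 of Otx2-/-. Otx2-/- ESCs that carry a tetON transgene for Otx2 gave the last pair, 1 library with and 1 without doxycycline (dox), at a dose and for a time the labels do not state. The medium changed together with the cell state, so the effects of medium and state cannot be told apart, and in RNA of whole cultures fewer cells with a transcript and less RNA per cell cannot be told apart.

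Cholesterol is built from acetyl-CoA. The mevalonate pathway makes isoprenoid units, farnesyl diphosphate is joined into squalene, and squalene is closed to lanosterol and trimmed to cholesterol. Cells hold this output steady through SREBP transcription factors. When membrane sterol is low, SCAP carries SREBP to the Golgi, where it is cut and released to switch on sterol and fatty acid genes. When sterol is high, INSIG proteins hold SCAP in the endoplasmic reticulum. The SREBP precursors are coded by Srebf1, linked more to fatty acid genes, and Srebf2, linked more to sterol genes. Promoters of their targets are known for SREBP elements close to sites of the general factors NF-Y, which binds the letters CCAAT, and Sp1, which binds GC-rich letters.

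Promoter sequence was read from RefSeq windows on GRCm38.p6 for the 25 listed genes that had one. The letters CCAAT, searched on both strands in the 250 bases before each annotated start, were present for 19 of 25 genes (76%), against 37.5% of all 27025 genes with a window. Among genes measured well enough to be tested between EpiLCs and ESCs, 41.2% of 8514 had them. The letters GGGCGG were present for 20 of 25 (80%), against 35.4% of all genes and 66.1% of the tested genes. CACGTG was present for 5 of 25 (20%), against 6.86% of all genes and 10.3% of the tested genes. The SREBP element letters TCACNCCAC were present for 1 of 25, Hmgcs1, against 1.22% of all genes and 1.33% of the tested genes. Other forms of the element were not searched, so a window without these letters is not shown to lack one. Matches of different motifs did not overlap, and a match is a description of letters, not a site. The following 250-base windows, written 5′ to 3′ with every CCAAT or its reverse complement ATTGG in capitals, are those of genes on which the expression results below turn: 4 sterol-arm genes that rose in EpiLCs, a sterol isomerase that fell, a kinase that did not pass, and the gene of the list with the largest rise.
Insig1 (chr5:28071162-28071411, plus strand): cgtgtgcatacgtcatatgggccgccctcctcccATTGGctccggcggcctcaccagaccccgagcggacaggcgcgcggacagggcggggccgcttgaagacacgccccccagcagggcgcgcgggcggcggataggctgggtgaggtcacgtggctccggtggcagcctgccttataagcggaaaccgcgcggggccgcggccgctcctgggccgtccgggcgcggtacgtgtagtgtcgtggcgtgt
Idi1 (chr13:8885356-8885605, plus strand): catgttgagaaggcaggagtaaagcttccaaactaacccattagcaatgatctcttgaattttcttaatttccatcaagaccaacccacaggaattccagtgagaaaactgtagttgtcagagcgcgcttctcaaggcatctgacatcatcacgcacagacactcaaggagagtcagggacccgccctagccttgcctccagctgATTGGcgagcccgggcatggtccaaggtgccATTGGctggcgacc
Cyp51 (chr5:4104698-4104947, minus strand): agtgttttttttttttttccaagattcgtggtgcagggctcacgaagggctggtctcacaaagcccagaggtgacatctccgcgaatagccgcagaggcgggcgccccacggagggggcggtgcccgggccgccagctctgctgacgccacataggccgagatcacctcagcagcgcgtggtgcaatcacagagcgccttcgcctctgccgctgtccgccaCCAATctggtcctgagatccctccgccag
Sc4mol (chr8:64733579-64733828, minus strand): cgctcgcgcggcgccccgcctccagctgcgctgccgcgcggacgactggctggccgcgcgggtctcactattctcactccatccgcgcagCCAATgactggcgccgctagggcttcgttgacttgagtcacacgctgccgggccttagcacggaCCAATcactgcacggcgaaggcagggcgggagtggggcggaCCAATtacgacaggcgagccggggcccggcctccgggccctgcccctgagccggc
Ebp (chrX:8193513-8193762, minus strand): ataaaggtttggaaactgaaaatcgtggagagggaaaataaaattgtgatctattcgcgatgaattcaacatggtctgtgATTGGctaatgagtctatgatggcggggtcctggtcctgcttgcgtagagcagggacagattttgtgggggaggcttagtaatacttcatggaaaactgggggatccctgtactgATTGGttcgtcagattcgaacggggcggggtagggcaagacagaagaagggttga
Mvk (chr5:114444019-114444268, plus strand): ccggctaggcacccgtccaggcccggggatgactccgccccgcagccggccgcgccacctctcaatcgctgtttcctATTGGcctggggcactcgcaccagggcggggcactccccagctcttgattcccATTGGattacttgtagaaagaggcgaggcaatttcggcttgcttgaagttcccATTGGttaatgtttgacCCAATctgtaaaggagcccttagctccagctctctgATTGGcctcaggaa
Fads2 (chr19:10101504-10101753, minus strand): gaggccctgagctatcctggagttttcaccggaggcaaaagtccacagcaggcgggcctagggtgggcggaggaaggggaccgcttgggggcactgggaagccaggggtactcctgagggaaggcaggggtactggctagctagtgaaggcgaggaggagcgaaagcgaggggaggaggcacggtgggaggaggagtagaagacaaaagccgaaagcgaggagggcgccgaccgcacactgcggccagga
Mvk held 5 CCAAT matches, more than the genes shown that rose, and did not pass the test between EpiLCs and ESCs. Ebp held 2 matches and was lower in EpiLCs. Fads2 held none and had the largest increase. CCAAT was found for 9 of the 10 genes with a window that rose in EpiLCs and for 8 of the 13 other tested genes with one.

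The R1 and E14 libraries carried the expression of their labelled states. Klf4, a naive pluripotency factor, averaged 0.944 ± 0.127 FPKM in R1 and E14 EpiLCs and 87.7 ± 13.7 FPKM in R1 and E14 ESCs, and Fgf5, a marker of the post-implantation epiblast, averaged 31.5 ± 3.83 and 0.655 ± 0.134 FPKM in the same groups (SD, n = 3 each). Otx2-/- EpiLCs had less Fgf5, at 5.18 FPKM, against 35.8, 28.4 and 30.4 FPKM in R1 EpiLCs with activin A, R1 EpiLCs without it and E14 EpiLCs. Otx2-/- ESCs had 0.451 FPKM. The epiblast markers Pou3f1 and Dnmt3b were not low in Otx2-/- EpiLCs, at 74.2 and 289 FPKM. In the other EpiLCs Pou3f1 lay between 42.0 and 72.2 FPKM and Dnmt3b between 159 and 337 FPKM. Otx2 was at 15.8 FPKM in Otx2-/- EpiLCs, against 151, 107 and 39.9 FPKM in R1 EpiLCs with activin A, R1 EpiLCs without it and E14 EpiLCs. It was at 7.85 FPKM in Otx2-/- ESCs, against 5.72, 9.09 and 3.96 FPKM in the R1 and E14 ESCs. The deleted stretch of Otx2 is not given in the sources used here, so these values cannot check the deletion. In the tetON pair Otx2 was at 1059.3 FPKM with dox and at 45.8 FPKM without. Summed over 4 naive markers, Klf4, Esrrb, Tfcp2l1 and Zfp42, the 4 EpiLC libraries lay between 46.3 and 70.4 FPKM and the 4 ESC libraries without the transgene between 815 and 970 FPKM. Nanog, listed with them, had only an entry shared with Nanogpd and was left out of the sum. Of markers of other cells, 5 fibroblast genes summed to between 2.90 and 6.71 FPKM and 5 primitive endoderm genes to between 0.617 and 5.27 FPKM over the 10 libraries. The highest primitive endoderm sum was in the dox library. The 4 neural genes Pax6, Sox1, Neurog2 and Tubb3 summed to between 3.89 and 18.2 FPKM in the 4 EpiLC libraries and between 39.1 and 53.2 FPKM in those 4 ESC libraries, with Tubb3 the largest term in each; their part in the results was not tested. Approximate depth, from low values above 0 in olfactory receptor genes, ran between 6.55M fragments in E14 EpiLCs and 20.6M in 1 R1 ESC library.

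EpiLCs had more RNA of most sterol synthesis genes than ESCs. Over R1 and E14, 12 of 21 sterol-arm genes rose and 1 fell, with a median change of 0.82 on the log2(FPKM + 1) scale. In the fatty acid arm 3 of 9 rose and none fell, with a median change of 0.57, and 6 of the 9 had an unadjusted p under 0.05 in either direction, against 36.8% of all genes tested. Calls are from limma with Benjamini-Hochberg adjusted p under 0.05 across all 12244 genes tested, 3 EpiLC against 3 ESC libraries with the line as a covariate. Of all genes tested, 9.73% rose and 10.6% fell, and their median change was -0.09. Rescaling the libraries by median ratios moved that median to 0.02, and the number of sterol-arm genes that rose was then 15.

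**Figure D1:**
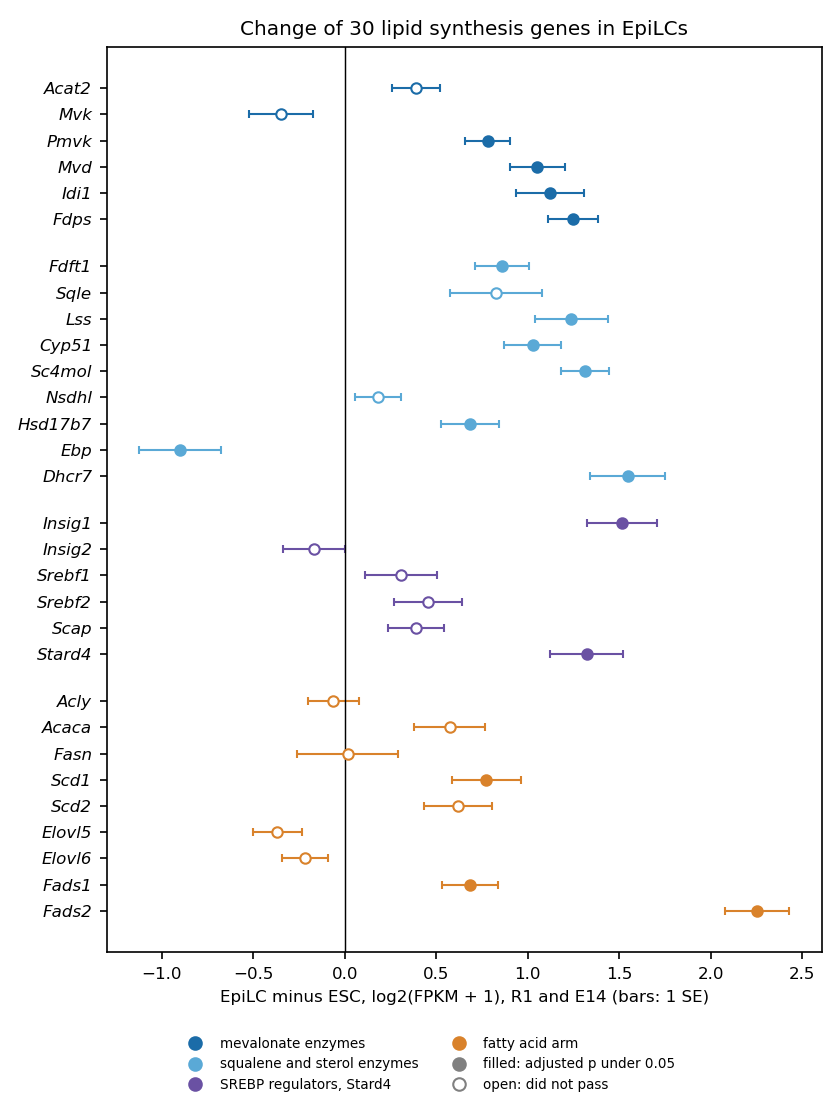
Change of each of the 30 genes in EpiLCs against ESCs of R1 and E14, as the difference in log2(FPKM + 1) on the horizontal axis, with bars of 1 SE and genes grouped by role. Filled points passed limma's adjusted threshold: 12 sterol-arm genes and 3 fatty acid genes lie to the right of 0 and Ebp to the left.

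The mevalonate enzymes turn acetyl-CoA into farnesyl diphosphate, and 4 of the 6 with values rose. Fdps, which makes farnesyl diphosphate, had 202, 213, 194 and 182 FPKM in EpiLCs of R1 with activin A, R1 without it, E14 and Otx2-/-. In ESCs it had 91.3 and 78.1 FPKM in R1, 85.7 in E14 and 82.9 in Otx2-/-. Every EpiLC library lay above every ESC library, and over R1 and E14 Fdps rose by 1.25 ± 0.14 (SE; limma adjusted p = 0.00567). Idi1, the isomerase of the isoprenoid units, had 111, 104, 103 and 81.1 FPKM in the EpiLCs in the same order, and 62.4, 42.9, 41.8 and 38.0 FPKM in the ESCs of R1, R1, E14 and Otx2-/-. The lowest EpiLC value, that of Otx2-/-, was still above the highest ESC value, and the rise over R1 and E14 was 1.12 ± 0.18 (limma adjusted p = 0.0157).

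Mvd, the decarboxylase that yields the first isoprenoid unit, averaged 42.1 ± 5.72 FPKM in R1 and E14 EpiLCs and 19.7 ± 2.26 FPKM in the ESCs (SD, n = 3 each), a rise of 1.05 ± 0.15. Pmvk, the kinase before it, averaged 58.9 ± 8.18 FPKM in the EpiLCs and 34.0 ± 5.55 FPKM in the ESCs, a rise of 0.78 ± 0.12, and the adjusted p in limma was 0.0112 for Mvd and 0.0146 for Pmvk. Acat2, a thiolase at the start of the pathway, had 33.6, 30.6 and 31.8 FPKM in the R1 and E14 EpiLCs, against 26.3, 22.8 and 23.5 FPKM in the ESCs. Its groups did not overlap, but its difference of 0.39 ± 0.13 did not pass (limma adjusted p = 0.0928), and its reads may be shared with the near copy Acat3. Mvk, the mevalonate kinase, went the other way without passing. It had 12.4, 14.2 and 15.0 FPKM in the R1 and E14 EpiLCs, against 20.8, 14.4 and 19.3 FPKM in the ESCs, so the groups overlapped, and the difference was -0.35 ± 0.18 (limma adjusted p = 0.212). Mvk and Pmvk, which act in turn, thus had differences of opposite sign.

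Of the 9 enzymes that take farnesyl diphosphate to squalene and cholesterol, 6 rose and 1 fell, and in all 9 the R1 and E14 groups were fully separated. Such separation, EpiLC above ESC, was seen for 17 of 21 sterol-arm genes and for 19.7% of all genes tested, and separation the other way for 1 of 21 and for 25.5%. Dhcr7, which makes cholesterol in the last step of its route, had the largest rise of the arm. It had 62.7 and 57.1 FPKM in R1 EpiLCs with and without activin A, 42.9 in E14 and 49.7 in Otx2-/- EpiLCs, against 14.5 and 19.6 FPKM in R1, 19.4 in E14 and 15.2 in Otx2-/- ESCs. The lowest EpiLC value, that of E14, was far above the highest of these ESC values, and the rise over R1 and E14 was 1.55 ± 0.21 (limma adjusted p = 0.00955).

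Sc4mol, the methylsterol oxidase now called Msmo1, was among the steadiest of the set. It had 125, 111, 102 and 104 FPKM in the EpiLCs of R1 with activin A, R1 without it, E14 and Otx2-/-, against 47.0, 43.2, 43.5 and 40.0 FPKM in the ESCs of R1, R1, E14 and Otx2-/-. The ESC libraries lay close together and far below every EpiLC library, and the rise was 1.31 ± 0.13 (limma adjusted p = 0.00488). Lss, which closes squalene to lanosterol, averaged 43.6 ± 1.60 FPKM in the R1 and E14 EpiLCs and 18.3 ± 4.95 FPKM in the ESCs. Cyp51, the lanosterol demethylase, averaged 45.9 ± 7.20 FPKM in the EpiLCs and 21.8 ± 1.59 FPKM in the ESCs (SD, n = 3 each). Both rose in limma, Lss by 1.24 ± 0.20 (adjusted p = 0.0148) and Cyp51 by 1.03 ± 0.16 (adjusted p = 0.0130). The Lss entry overlaps that of 4930483K19Rik, and reads of overlapping entries cannot be told apart in these tables.

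Fdft1, the squalene synthase, rose by 0.86 ± 0.15 (limma adjusted p = 0.0170), with an entry that overlaps that of Ctsb. Hsd17b7, a sterol ketone reductase and the least abundant enzyme of the group, averaged 7.84 ± 1.30 FPKM in R1 and E14 EpiLCs and 4.48 ± 0.543 FPKM in ESCs and rose by 0.68 ± 0.16 (limma adjusted p = 0.0382). Sqle, the squalene epoxidase and a known control point, had 80.3, 83.7 and 92.3 FPKM in the EpiLCs, against 65.1, 34.7 and 48.0 FPKM in the ESCs. Its groups did not overlap, but the 2 R1 ESC libraries lay far apart, and the difference of 0.82 ± 0.25 did not pass (limma adjusted p = 0.0752). Nsdhl, a sterol dehydrogenase, differed by 0.18 ± 0.13 (limma adjusted p = 0.336).

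Ebp, the sterol isomerase upstream of Dhcr7, was the exception. It had 11.3, 8.56, 10.1 and 7.92 FPKM in EpiLCs of R1 with activin A, R1 without it, E14 and Otx2-/-, against 25.6, 15.8, 17.9 and 19.4 FPKM in ESCs of R1, R1, E14 and Otx2-/-. Every EpiLC library was below every ESC library, and over R1 and E14 Ebp fell by 0.90 ± 0.22 on the log2 scale (limma adjusted p = 0.0447). That adjusted p was the highest among the calls of the sterol arm. The call passed in 8 of 13 alternative settings, and that of Hsd17b7 in 7 of 13.

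**Figure D2:**
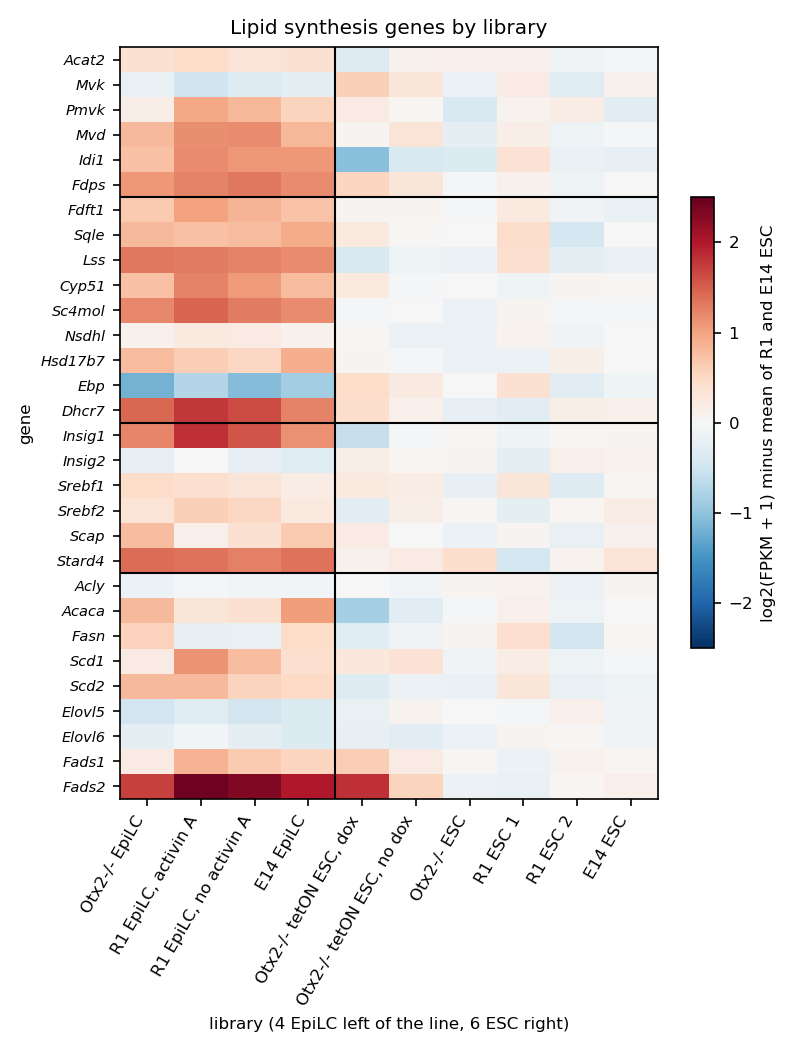
Each row is a gene and each column a library, coloured by log2(FPKM + 1) minus the mean of the R1 and E14 ESC libraries; horizontal lines part the mevalonate, squalene and sterol, regulator and fatty acid genes. The 4 EpiLC columns are red for most sterol genes and for Fads2, and blue for Ebp, while the dox column is red for Fads2 and blue for Idi1 and Acaca.

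Among the 6 sterol regulators and carriers, 2 rose: Insig1 and Stard4. Insig1, the SCAP retention protein whose own gene is a well-known SREBP target, had 182, 153, 113 and 120 FPKM in EpiLCs of R1 with activin A, R1 without it, E14 and Otx2-/-. In ESCs it had 46.8 and 52.2 FPKM in R1, 53.0 in E14 and 51.4 in Otx2-/-. The EpiLC values lay well clear of a narrow ESC range, and the rise over R1 and E14 was 1.51 ± 0.19 (limma adjusted p = 0.00839). Stard4, which moves sterol between membranes, averaged 37.1 ± 1.33 FPKM in R1 and E14 EpiLCs and 14.6 ± 4.06 FPKM in ESCs, a rise of 1.32 ± 0.20 (limma adjusted p = 0.0127).

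The other genes of the sensing machinery, Srebf2, Scap, Srebf1 and Insig2, did not pass. Srebf2 averaged 85.3 ± 10.7 FPKM in R1 and E14 EpiLCs and 62.1 ± 9.31 FPKM in ESCs, with a difference of 0.45 ± 0.18 (limma adjusted p = 0.141). Scap averaged 14.5 ± 2.81 and 10.7 ± 1.26 FPKM in the same groups, with a difference of 0.39 ± 0.15 (limma adjusted p = 0.130). In both genes the groups were separated, by small margins. Srebf1, whose entry spans 115592 bases on mm9 and overlaps that of Rai1, differed by 0.31 ± 0.20 (limma adjusted p = 0.310). Insig2, the paralog of Insig1, was low, between 7.20 and 10.2 FPKM over all 10 libraries, and differed by -0.17 ± 0.17 (limma adjusted p = 0.508).

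The fatty acid arm was mixed, and the genes of it that passed were all desaturases. Acly, which supplies cytosolic acetyl-CoA, and Fasn, which builds palmitate, were near 0 change. Acly averaged 149 ± 0.933 FPKM in R1 and E14 EpiLCs and 156 ± 14.1 FPKM in ESCs (SD, n = 3 each), a difference of -0.06 ± 0.14 (limma adjusted p = 0.766). Fasn had 67.8 and 69.0 FPKM in R1 EpiLCs with and without activin A and 108 in E14 EpiLCs, against 106 and 57.2 in R1 ESCs and 80.6 in E14 ESCs. The groups overlapped throughout, the 2 R1 ESC libraries spanned nearly the whole range, and the difference was 0.02 ± 0.28 (limma adjusted p = 0.971). Acaca, the carboxylase that makes malonyl-CoA, had 18.1, 19.0 and 30.6 FPKM in the EpiLCs and 15.9, 13.2 and 14.3 FPKM in the ESCs. These groups were separated, with E14 EpiLCs the highest, and the difference of 0.57 ± 0.19 did not pass (limma adjusted p = 0.0956).

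Fads2, the desaturase that opens the synthesis of long polyunsaturated fatty acids, changed most of all 30 genes. It lies at chr19:10138654-10175993 on mm9, in the same cluster as Fads1 at chr19:10257378-10271362. Fads2 had 111, 102, 82.2 and 66.4 FPKM in EpiLCs of R1 with activin A, R1 without it, E14 and Otx2-/-, against 17.3 and 20.5 FPKM in R1, 21.6 in E14 and 17.7 in Otx2-/- ESCs. The EpiLC values were 4.98 times the ESC values as a ratio of R1 and E14 means, with no overlap, and the rise was 2.25 ± 0.18 (limma adjusted p = 0.00288). Fads1, the next front-end desaturase of the same route, averaged 33.9 ± 4.17 FPKM in R1 and E14 EpiLCs and 20.7 ± 1.80 FPKM in ESCs and rose by 0.68 ± 0.15 (limma adjusted p = 0.0336).

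Scd1 and Scd2 put the first double bond into saturated fatty acids and also neighbour each other on chromosome 19. Scd1 averaged 32.7 ± 8.30 FPKM in R1 and E14 EpiLCs and 18.4 ± 2.22 FPKM in ESCs and rose by 0.77 ± 0.19 (limma adjusted p = 0.0421). Scd2, the more abundant of the pair, averaged 174 ± 21.2 FPKM in the EpiLCs and 114 ± 22.3 FPKM in the ESCs. Its groups were separated, and its difference of 0.62 ± 0.18 did not pass (limma adjusted p = 0.0705). The elongases Elovl5 and Elovl6, which lengthen polyunsaturated and saturated chains, differed by -0.37 ± 0.14 and -0.22 ± 0.13 (limma adjusted p = 0.113 and 0.270). Elovl5 was lower in each of the 3 EpiLC libraries than in each ESC library, and Elovl6 overlapped. Separation with EpiLC above was seen for 5 of 9 fatty acid genes and for 19.7% of all genes tested. The other way, it was seen for 1 of 9 and for 25.5%.

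**Figure D3:**
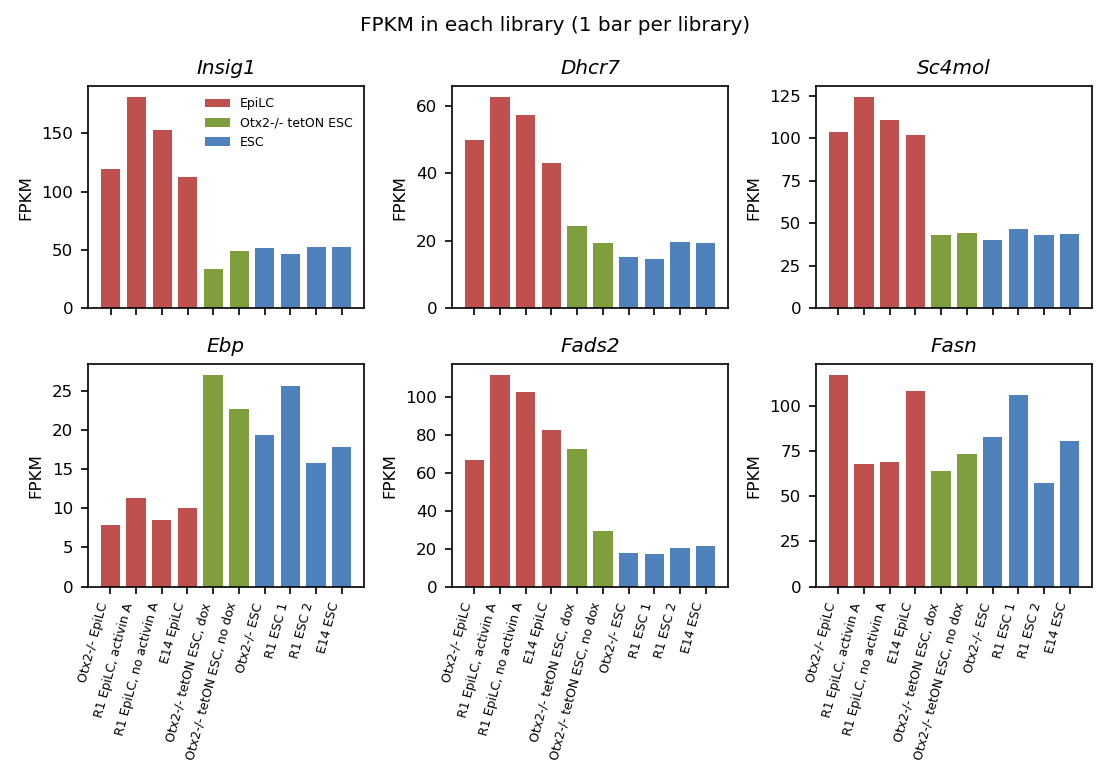
FPKM of 6 genes in each of the 10 libraries, 1 bar per library, EpiLC in red, tetON ESC in green and other ESC in blue. Insig1, Dhcr7 and Sc4mol stand high in all 4 EpiLC libraries, Ebp stands low in them, Fads2 is also at 72.4 FPKM in the dox library, and Fasn overlaps between the states.

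The number of calls rested on single libraries, while none of the 16 genes that passed changed direction in the 13 alternative settings tried. Without the R1 EpiLC library that had no activin A, 1 sterol-arm gene passed, without that with activin A 3, and without either E14 library 7. Without the first R1 ESC library 15 passed, and without the second 12. In the fatty acid arm 5 genes passed without the first R1 ESC library and 1 without any other. Sc4mol and Fads2 passed in all of these settings, with log2 changes between 1.25 and 1.52 for Sc4mol and between 2.13 and 2.44 for Fads2.

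Summed per library, each group of genes separated the states. The 6 mevalonate genes summed to between 384 and 470 FPKM in the 4 EpiLC libraries and to between 206 and 259 FPKM in the 4 ESC libraries without the transgene. The 9 squalene and sterol enzymes summed to between 415 and 482 FPKM in those EpiLCs and between 209 and 264 FPKM in those ESCs. The fatty acid arm summed to between 646 and 713 FPKM in the EpiLCs and between 472 and 583 FPKM in the ESCs. None of these ranges overlapped. The fatty acid sum does not show that the whole arm moved. Within it Fads2 alone lay between 66.4 and 111 FPKM in the EpiLCs and between 17.3 and 21.6 FPKM in the ESCs. Over R1 and E14, Acly and Fasn were near 0 change, and Elovl5 and Elovl6 had differences below 0. The 2 R1 ESC libraries differed among themselves, with a median over the 30 genes of -0.21 for replicate 2 over replicate 1, close to the -0.22 of all genes of that pair. No member passed a 2-fold ratio of (FPKM + 1) in that replicate pair, against 11.5% of all genes with at least 5 FPKM in 1 library. Sqle and Fasn came nearest, at -0.89 and -0.88.

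The pattern was followed in each line by itself. In 27 of the 30 genes the R1 libraries were separated by state and E14 and Otx2-/- moved in the same direction, 23 higher and 4 lower in EpiLCs. The 4 lower were Mvk, Ebp, Elovl5 and Elovl6. Of all genes tested, 21.2% were higher and 28.3% lower in this sense in the 3 lines. The 3 remaining genes, Insig2, Acly and Fasn, overlapped in R1. Between E14 EpiLCs and E14 ESCs, 9 of 30 genes were past a 2-fold higher ratio and none past a 2-fold lower one, against 6.89% higher and 9.24% lower of all 9283 genes considered. These were Idi1, Fdps, Lss, Sc4mol, Dhcr7, Insig1, Stard4, Acaca and Fads2.

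The size of the response was then compared between E14 and R1. None of the 30 genes differed in limma's interaction test (smallest adjusted p = 0.914), and 0.327% of all genes did. No member had an unadjusted p under 0.05, against 3.10% of all genes. Insig1 rose by 1.08 in E14 and by 1.73 in R1, a difference of -0.66 ± 0.32. Dhcr7 rose by 1.11 in E14 and by 1.77 in R1, a difference of -0.66 ± 0.37. Acaca was the furthest the other way, with 1.05 in E14 and 0.34 in R1, a difference of 0.71 ± 0.30. A p that misses the threshold does not show that the lines respond alike.

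Most lipid genes moved in Otx2-/- cells in the direction they moved in R1 and E14. Otx2-/- EpiLCs had 8 of 30 genes past 2-fold above Otx2-/- ESCs and 1 past 2-fold below, against 6.99% higher and 8.47% lower of 9324 genes in this pair, which has 1 library a side and no test. The 8 were Mvd, Idi1, Fdps, Lss, Sc4mol, Dhcr7, Insig1 and Fads2, and the 1 was Ebp, with a log2 ratio of -1.19. Among these, Lss had 46.0 FPKM in Otx2-/- EpiLCs and 16.0 FPKM in Otx2-/- ESCs, the highest EpiLC value of the 4 libraries.

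Compared with R1 and E14 EpiLCs, none of the 30 genes passed in Otx2-/- EpiLCs (smallest limma adjusted p = 0.960), and 0.163% of all 12271 genes did. The fit pools 8 libraries, and takes the single Otx2-/- library to vary as the rest do. Differences of members ran between -0.61 and 0.55, with a median of -0.10, 10 above 0 and 20 below, against a median of 0.01 for all genes. At an unadjusted p under 0.05 there were 3 of 30 members, all lower in Otx2-/- EpiLCs, against 3.59% of all genes in either direction. Pmvk had 38.1 FPKM in Otx2-/- EpiLCs, against 66.3, 60.3 and 50.1 FPKM in R1 with activin A, R1 without it and E14, a difference of -0.61 ± 0.25. The Otx2-/- value was below all of the others, as it also was for Fads2 and Fads1.

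Fads2 had 66.4 FPKM in Otx2-/- EpiLCs, against 111, 102 and 82.2 FPKM in the other EpiLCs, a difference of -0.55 ± 0.23. Fads1 had 23.8 FPKM in Otx2-/- EpiLCs, against 38.5, 32.9 and 30.4 FPKM, a difference of -0.48 ± 0.20. Scd1 lay lowest in Otx2-/- EpiLCs as well, at 21.2 FPKM, against 41.3, 32.2 and 24.7 FPKM, with a difference of -0.58 ± 0.29. The desaturase Scd2 did not follow them. It had 198.1 FPKM in Otx2-/- EpiLCs, against 197.7, 165.3 and 157.7 FPKM in the other EpiLCs, a difference of 0.20 ± 0.25. Acly had 140 FPKM in Otx2-/- EpiLCs, the lowest of the EpiLC libraries by a small margin, against 150, 148 and 149 FPKM in R1 with activin A, R1 without it and E14, a difference of -0.09 ± 0.17. Fasn was highest there. It had 117 FPKM in Otx2-/- EpiLCs, against 67.8, 69.0 and 108 FPKM in R1 with activin A, R1 without it and E14, a difference of 0.55 ± 0.40. None of these passed adjustment in limma, where the adjusted p was 0.965 for Acly and 0.960 for the others. The 4 neural markers summed to 18.2 FPKM in Otx2-/- EpiLCs, against 3.89, 6.61 and 10.3 FPKM in the other EpiLCs, with Sox1 at 7.73 FPKM, the highest of the 10 libraries; their part in these differences was not tested.

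In ESCs none of the members passed between Otx2-/- and R1 and E14 (all limma adjusted p = 1), against 0.139% of all genes, and none had an unadjusted p under 0.05, against 1.08% of all genes. Differences ran between -0.39 for Pmvk and 0.44 for Stard4, with a median of -0.07. The test of whether Otx2-/- cells responded to EpiLC conversion by another amount called none of the members (smallest limma adjusted p = 0.997) and 0.277% of all genes, with differences between -0.50 for Fads1 and 0.53 for Scap. Here too no member had an unadjusted p under 0.05, against 1.58% of all genes.

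In tetON ESCs, 1 of the members was past 2-fold with dox over without, Fads2. With dox it was at 72.4 FPKM and without dox at 29.5 FPKM, a log2 ratio of 1.27. The dox value lay above the 66.4 FPKM of Otx2-/- EpiLCs but below R1 and E14 EpiLCs, the lowest of which had 82.2 FPKM. The value without dox lay above all 4 ESC libraries without the transgene, whose Otx2 was also lower than the 45.8 FPKM of the library without dox. Of 29 members considered, 1 was past the ratio upward and none downward, shares below the 6.42% and 5.71% of 9304 genes. The pair has 1 library a side and no test, and without a dox library lacking the transgene, effects of dox and of Otx2 cannot be told apart. The 4 naive markers summed to 352 FPKM with dox and 824 FPKM without. Klf4, Esrrb and Zfp42 were lower with dox, but Tfcp2l1 was at 148 FPKM with dox and 126 FPKM without. The 4 neural markers summed to 3.61 FPKM with dox and 52.5 FPKM without. The part of the naive and neural markers in the result was not tested.

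None of the other members that rose in EpiLCs was past 2-fold with dox. Insig1 was at 33.7 FPKM with dox and 49.5 without, a log2 ratio of -0.54, which made the dox library the lowest of all 10. Idi1 was at 22.8 FPKM with dox and 36.9 without (log2 ratio -0.67), and Acaca at 7.66 and 11.7 (log2 ratio -0.56), again with the dox library the lowest of the 10. Sc4mol, at 43.0 FPKM with dox and 44.2 without, hardly differed. The sterol arm had a median log2 ratio of 0.08, against -0.06 for all genes, with Dhcr7 at its upper end (0.31). Fads1 came next to Fads2, with 32.2 FPKM with dox and 23.9 without and a log2 ratio of 0.42.

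**Figure D4:**
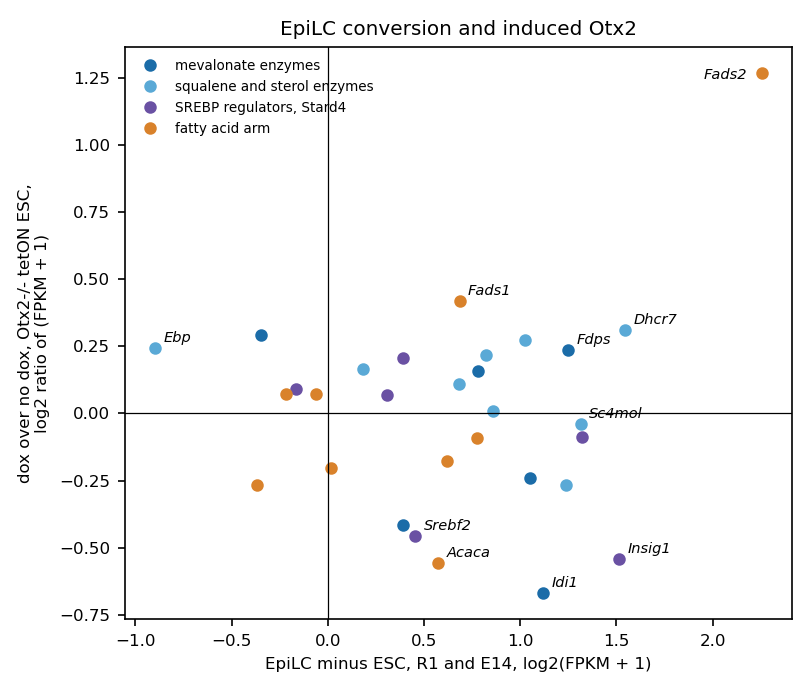
Each point is 1 of the 30 genes, placed by its EpiLC minus ESC change in R1 and E14 (horizontal, log2(FPKM + 1)) and by its log2 ratio of (FPKM + 1) with dox over without dox in tetON ESCs (vertical). Fads2 stands alone at the upper right, while Insig1 and Idi1, which rose in EpiLCs, lie below 0 on the vertical axis.

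Without dox, tetON ESCs were set beside Otx2-/- ESCs without the transgene, a pair in which 2.70% of 8951 genes and none of 29 members were past 2-fold. Fads2 had the largest ratio of the members, with 29.5 FPKM in tetON ESCs without dox and 17.7 FPKM in Otx2-/- ESCs (log2 ratio 0.71). Mvd followed at 0.53. Both pairs share the library without dox.

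Activin A was compared within R1. In R1 EpiLCs with activin A over those without, none of the 30 genes was past 2-fold, against 2.14% of 8963 genes. The log2 ratios ran between -0.25 for Scap and 0.36 for Ebp, with a median of 0.11, against -0.01 for all genes. Scd1 had 41.3 FPKM with activin A and 32.2 FPKM without, and Insig1 had 182 and 153 FPKM. With 1 library a side these ratios have no replicate check.

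Genes around the 2 arms were counted in the same test between EpiLCs and ESCs of R1 and E14. Beyond the listed enzymes, Lbr, a sterol reductase of the nuclear envelope, averaged 92.8 ± 3.54 FPKM in R1 and E14 EpiLCs and 64.7 ± 3.56 FPKM in ESCs (SD, n = 3 each) and rose by 0.52 ± 0.12 (limma adjusted p = 0.0409). Sc5d, a late sterol desaturase, averaged 17.3 ± 1.23 FPKM in the EpiLCs and 11.4 ± 1.61 FPKM in the ESCs. Its groups did not overlap, and its difference of 0.57 did not pass (limma adjusted p = 0.0540). Among 10 genes of the isoprenoid branch none rose and 1 fell, Fntb, a farnesyltransferase subunit (-0.83 ± 0.20, limma adjusted p = 0.0431), with 2 at an unadjusted p under 0.05. Among 9 SREBP processing genes none rose and 1 fell, Erlin2 (-0.55 ± 0.12, limma adjusted p = 0.0310), again with 2 at an unadjusted p under 0.05. For these lists and those that follow, the shares over all genes tested were 9.73% higher and 10.6% lower. At an unadjusted p under 0.05 in limma the share was 36.8%.

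Genes of sterol uptake, transport and efflux changed both ways. Abcg1, a sterol exporter, had 5.45, 6.70 and 3.19 FPKM in R1 EpiLCs with activin A, R1 EpiLCs without it and E14 EpiLCs, against 0.549, 0.699 and 0.654 FPKM in the R1 and E14 ESCs. The groups were far apart, and Abcg1 rose by 1.86 ± 0.23 (limma adjusted p = 0.00741). Abca1, another sterol exporter, went the other way. It averaged 0.243 ± 0.029 FPKM in the EpiLCs and 2.66 ± 0.37 FPKM in the ESCs, a change of -1.55 ± 0.17 (limma adjusted p = 0.00567). Apoe, a lipoprotein carrier, averaged 148 ± 28.2 FPKM in the EpiLCs and 548 ± 239 FPKM in the ESCs and fell by 1.82 ± 0.31 on the log2 scale (limma adjusted p = 0.0165). The low level of Abcg1 in ESCs makes its log2 change smaller than its ratio of FPKM.

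A list of other genes of fatty acid synthesis, activation and glycerolipid assembly counted 3 higher and 1 lower of 19. Those that passed act in activation or glycerolipid assembly, and none of the list's elongases or other enzymes of chain synthesis passed. Acsl4, which activates long polyunsaturated fatty acids, rose by 2.05 ± 0.31 (limma adjusted p = 0.0124), Lpin1, a phosphatidate phosphatase, rose by 1.06 ± 0.17 (limma adjusted p = 0.0152), and Acsl1 fell by 0.69 ± 0.16 (limma adjusted p = 0.0352). Of 15 fatty acid oxidation genes 3 rose and 3 fell, with a median of -0.42. Slc25a20, the mitochondrial carnitine carrier, fell by 1.88 ± 0.27 (limma adjusted p = 0.0112), Acadm, a fatty acyl dehydrogenase, fell by 1.10 ± 0.19 (limma adjusted p = 0.0163), and Hadhb, a subunit of the trifunctional protein, rose by 0.98 ± 0.14 (limma adjusted p = 0.0107).

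**Figure D5:**
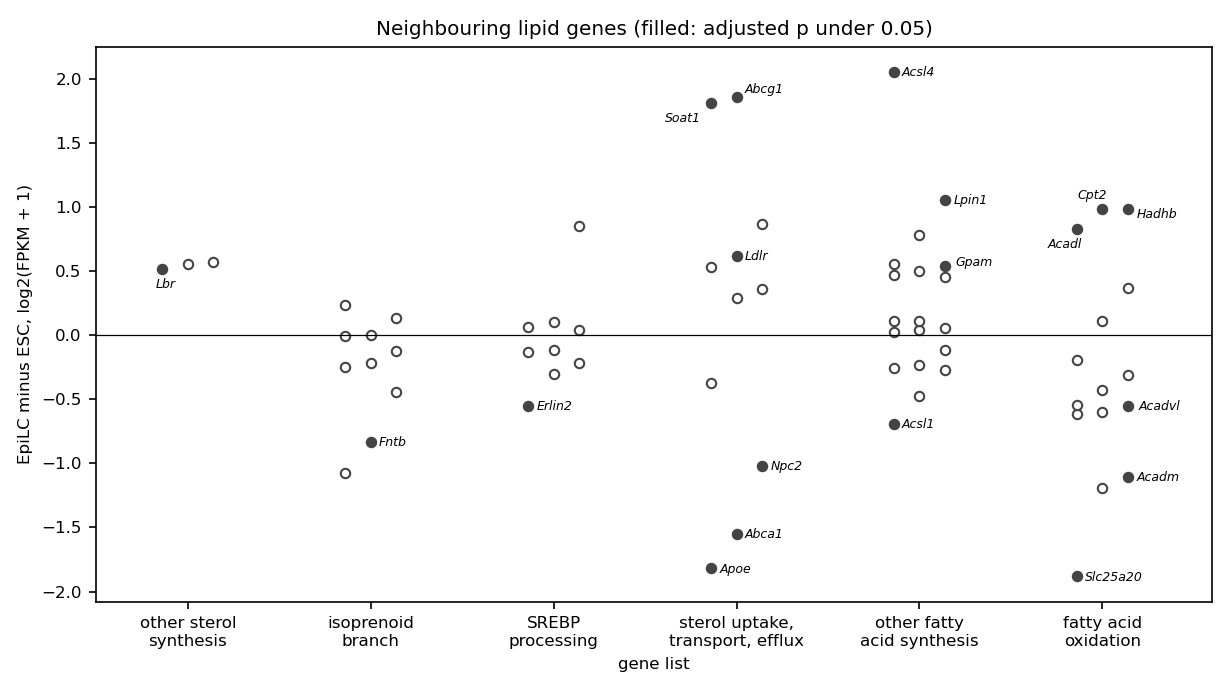
Change in EpiLCs against ESCs of R1 and E14 for tested genes of 6 neighbouring lipid lists, those reported here, as the difference in log2(FPKM + 1) on the vertical axis, 1 point per gene. Filled, named points passed limma's adjusted threshold; Abcg1 and Acsl4 lie above 0, and Apoe and Slc25a20 lie far below it.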

How the data were processed

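Per the labels' protocols, libraries were made from polyadenylated RNA with random priming for an Illumina Genome Analyzer, with no strand-marking step described. The authors deposited FPKM for each gene, computed with TopHat and Cufflinks on mm9, per the submitters' processing notes; neither versions nor annotation are stated there. No count model was applied to FPKM. Each table held 23112 entries, of which 17 exact repeats were dropped and 228 were summed by symbol. File starts count from 0 (end minus start equalled the RefSeq gene length for 7104 of 20150 symbols, against 450 counted the other way), so printed starts are 1 higher.

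Tests used limma 3.58.1 in R 4.3.3 (two-sided, with a mean-variance trend). Values were log2(FPKM + 1), genes averaging under 1 FPKM were left out, and p-values had Benjamini-Hochberg adjustment over all genes, with a threshold of 0.05. This scale understates the change of low genes. EpiLCs and ESCs were compared over 6 libraries with the line as a covariate. Otx2-/- libraries were compared in a fit of 8 without a line term, so R1 and E14 were pooled there. Pairs of single libraries have no test. A gene was considered if it reached 5 FPKM in at least 1 library of the pair, and was past 2-fold at a log2 ratio of (FPKM + 1) of at least 1 in size. The labels' protocols call the cultures of each state independent biological replicates, but each group other than R1 ESC is 1 library, so the p-values reflect only how these few libraries vary, across lines and activin A. Depth was approximated from the lower quartile of the values above 0 among 1086 olfactory receptor genes, of which 53 to 124 were above 0 in a library. The code was tested on simulated data.

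The members and the neighbouring gene lists were chosen with earlier results of these data known. Named were all members, Klf4, Fgf5 and Otx2, up to 3 genes of each other list that passed between EpiLCs and ESCs by size of change, Sc5d, and Abca1 beside Abcg1. A few genes of these lists are not reported here. Alternatives changed the pseudocount, the filter, the scaling, the line term and the libraries kept. Windows before gene starts are RefSeq's on GRCm38.p6, in which 7 members were not found.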

Additional observations from a re-analysis of the deposited data

How the results depend on the processing

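In the comparison of EpiLCs with ESCs, leaving out 1 library at a time gave 1 to 15 sterol-arm genes higher (12 with all libraries), 0 to 1 lower (1), 1 to 5 fatty acid genes higher (3), 0 to 0 lower (0) and 398 to 4118 genes called of all (2484). With no filter on low values 0 sterol-arm genes were lower. Keeping genes that average 5 FPKM or more, 1644 genes were called of all. Median-ratio scaling gave 5 fatty acid genes higher, and a fit of all 3 lines over 8 libraries, chosen after seeing the data, gave 5 higher, 1 lower and 3870 called of all. No member changed its side of the threshold in the Otx2-/- comparisons or in the comparison of E14 with R1, where 0 members were called in every setting. Counts over all genes there moved. Otx2-/- EpiLCs gave 59 with no filter and 21 to 42 with a library left out (20 in the reported fit). Otx2-/- ESCs gave 34 with no filter, 5 for genes averaging 5 FPKM or more, 37 in the ESC libraries alone and 20 to 26 with a library left out (17). The Otx2-/- response gave 55 with no filter, 11 for genes averaging 5 FPKM or more and 38 to 47 with a library left out (34). The E14 response gave 17 with a pseudocount of 0.1 FPKM, 13 for genes averaging 5 FPKM or more and 0 to 127 with a library left out (40). For the filters and libraries left out, fewer or more genes or fewer samples were tested; otherwise the cause was not tested. No result named here reversed. Comparisons that need a left-out Otx2-/- or E14 library were not run without it. ESC and EpiLC libraries were matched only by line, which the fit of 6 libraries took as a covariate and the Otx2-/- comparisons did not. Replicate numbers gave no closer pairing, because the groups compared share none beyond those of single libraries. With 3 libraries a state, small changes such as those of Srebf2 and Scap cannot be told from the spread.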
